A study of Homo sapiens with 4 samples.

Results

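The AlkB family dioxygenases are a family of human enzymes that remove or modify small chemical groups on nucleic acids and proteins. The 9 genes ALKBH1 to ALKBH8 and FTO were taken by gene symbol from a deposited table of 26336 genes, and all 9 were found. They were followed in MDA-MB-231, an established human line from a triple-negative breast cancer, after 24 h with W23-1006 (2 libraries) or with the vehicle DMSO (2 libraries). The labels give every culture as wild type, so no group carries a deleted or added gene, and the dose of W23-1006 is not given in the sources used here. The series title calls W23-1006 an inhibitor of ALKBH5, 1 of the 9 enzymes, and the comparison asks whether transcripts of the target and its relatives differ after exposure. An inhibitor acts on the protein, so RNA abundance does not check inhibition. Whether replicate libraries stem from separate cultures is not stated in the labels, so p-values reflect the variation among these 4 libraries alone, which could be technical.

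Enzymes of the AlkB family hold an iron ion and use oxygen and 2-oxoglutarate, a metabolite of the citric acid cycle, to oxidise their substrates. The demethylases among them oxidise a methyl group, which then leaves as formaldehyde. ALKBH5 and FTO do this to N6-methyladenosine (m6A), the most abundant internal mark of messenger RNA. ALKBH2 and ALKBH3 repair methylated bases, ALKBH1 and ALKBH8 act on transfer RNA, and the remaining members have other or less settled substrates. The iron is held by a histidine, an aspartate lying 2 residues after it, and a second histidine further on, followed by a pair of arginines 6 residues apart that belongs to the 2-oxoglutarate pocket.

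That signature was searched in the coding sequence of each gene's principal GENCODE release 29 transcript, as codons: a histidine codon, any codon, an aspartate codon, 40 to 90 codons, a histidine codon, 6 to 13 codons, an arginine codon, 5 codons and an arginine codon. It was found once in each of 6 of the 9 genes: ALKBH2, ALKBH3, ALKBH4, ALKBH5, ALKBH7 and FTO. In ALKBH1, ALKBH6 and ALKBH8 this exact spacing was not found, while the histidine and aspartate codon pair alone was found 2, 1 and 2 times. No match says only that these codons are not in this arrangement. The codons around the pair are shown for both m6A demethylases and both base repair enzymes, which all matched the signature. The histidine and the aspartate codon are in capitals.
ALKBH5: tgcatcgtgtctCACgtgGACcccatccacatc
FTO: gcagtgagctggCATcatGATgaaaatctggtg
ALKBH2: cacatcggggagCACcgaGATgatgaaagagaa
ALKBH3: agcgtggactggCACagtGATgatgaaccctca
In GRCh38 these stretches lie at chr17:18184841-18184873 (ALKBH5, plus strand, exon 1), chr16:53826419-53826451 (FTO, plus strand, exon 3), chr12:109088461-109088493 (ALKBH2, minus strand, exon 4) and chr11:43901615-43901647 (ALKBH3, plus strand, exon 8) of those transcripts. The capitals are codons 204 and 206 of ALKBH5, 231 and 233 of FTO, 171 and 173 of ALKBH2, and 191 and 193 of ALKBH3. ALKBH5 carries its pair in its first exon, whereas FTO, ALKBH2 and ALKBH3 carry theirs further downstream. The sequences are those of the reference, not of these cells.

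ALKBH5 was the most abundant member per length. Its level, as normalised read count per kb of all annotated exons, was 395 ± 8.59 with W23-1006 and 451 ± 1.91 with DMSO (SD, n = 2 each), above 92.3% of the 22486 genes tested. ALKBH2 came next, at 125 ± 14.6 with W23-1006 and 125 ± 7.15 with DMSO. ALKBH7, ALKBH8, ALKBH1 and ALKBH3 followed with DMSO, in that order, and the ranges of neighbours in this run overlapped over the 4 libraries, as did those of ALKBH3 and ALKBH4. FTO and ALKBH6 stood lowest, FTO at 33.0 ± 1.61 with W23-1006 and 29.4 ± 0.927 with DMSO, and ALKBH6 at 7.64 ± 0.00049 with W23-1006 and 10.03 ± 0.588 with DMSO. The low place of FTO depends on the length used. Its exons add up to 21379 bases over all annotated transcripts and to 11766 in the principal one. Per kb of principal transcripts FTO reached 62.1 and 57.9 with W23-1006, against 52.3 and 54.6 with DMSO, and its range then overlapped that of ALKBH4. ALKBH5 and ALKBH2 kept the first and second place on both lengths, and ALKBH6 the last.

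**Figure D1:**
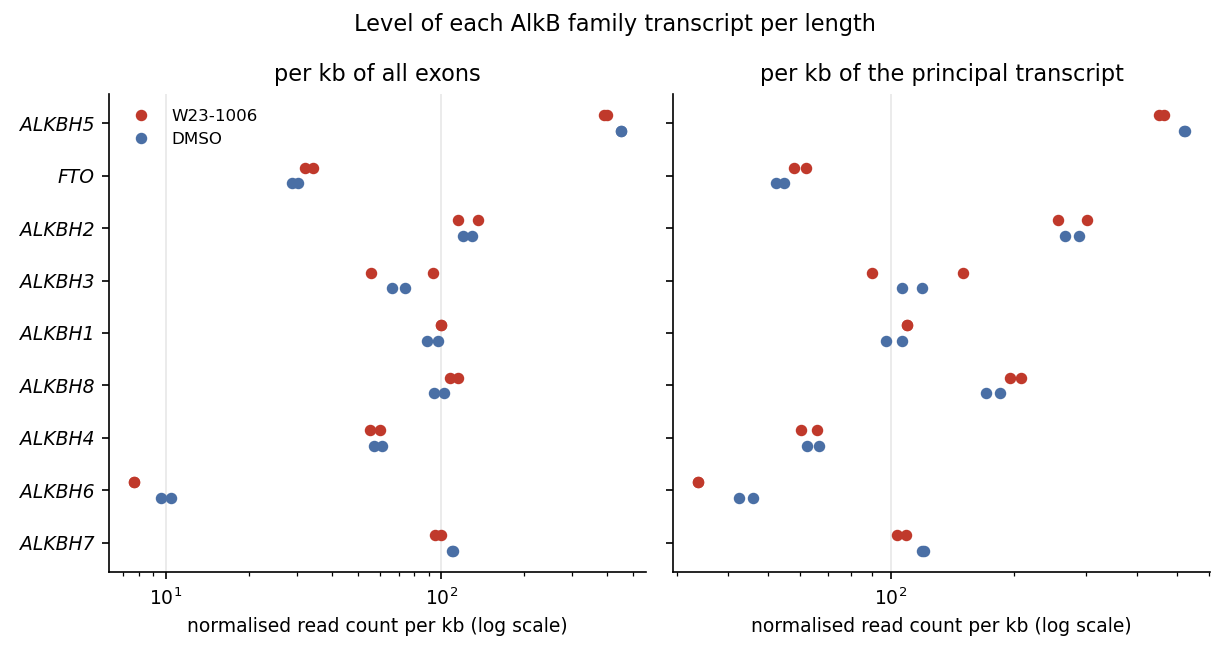
Level of each AlkB family transcript as normalised read count per kb on a log axis, by all annotated exons (left) and by the principal transcript (right), with 1 point per library for W23-1006 (red) and DMSO (blue). ALKBH5 lies to the right of all other members in every library, and FTO moves nearest to ALKBH4 when the principal transcript sets the length.

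None of the 9 members passed the test between W23-1006 and DMSO (0 higher and 0 lower at a limma adjusted p under 0.05), where 2.15% of all genes tested did, 0.694% higher and 1.46% lower. That is 156 genes higher and 328 lower, against 14 higher and 7 lower after a correction for transcript GC content and 361 higher and 413 lower after one for gene length. ALKBH5, slightly lower with the compound, was the 1 member with an unadjusted p under 0.05, against 16.7% of all genes tested. The same count of 0 came from limma-voom, which called 409 of all genes tested higher and 781 lower. The adjusted p in the authors' deposited table also gave 0 members, and its share over all genes was not computed here. Limma without its mean-variance trend called 0 of all genes tested, so its 0 members could not have come out otherwise. The log2 fold changes ran from -0.38 to 0.18, with 5 positive and 4 negative and a median of 0.0027, against -0.011 over all genes tested. For 8 of the 9 the limma 95% interval excluded both a doubling and a halving, the exception being ALKBH6. How often this held over all genes tested was not computed. These are amounts relative to the rest of the RNA, and in bulk samples fewer cells of a type and less RNA per cell cannot be told apart.

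ALKBH5 (ENSG00000091542, chromosome 17, 18183078 to 18209954, plus strand) encodes the nuclear m6A demethylase that the compound is said to inhibit. Its normalised read counts were 1281 and 1242 with W23-1006, against 1434 and 1443 with DMSO. Both compound libraries lay below both DMSO libraries, and the libraries of a group differed by little. The change was -12.3% in the means, a log2 fold change of -0.19 (SE 0.069, 95% interval -0.34 to -0.042; limma unadjusted p = 0.0152, adjusted p = 0.167). It missed the threshold over all genes. With that GC content correction the log2 fold change was -0.079 (SE 0.066, 95% interval -0.22 to 0.061; limma adjusted p = 0.817), and the groups still did not overlap. In the authors' deposited table the log2 fold change of ALKBH5 was -0.19, with a p of 0.0443 and an adjusted p of 0.194. An antisense gene, AC087164.1, covers 357 of its exonic bases and had authors' mean values of 2.44 with W23-1006 and 0.498 with DMSO.

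FTO (ENSG00000140718, chromosome 16, 53701692 to 54158512, plus strand), which removes methyl groups from m6A and from the methylated adenosine next to the cap, had normalised read counts of 730.3 and 682 with W23-1006, against 615 and 643 with DMSO. Here both compound libraries lay above both DMSO libraries. The log2 fold change was 0.17 (SE 0.087, 95% interval -0.020 to 0.35; limma adjusted p = 0.364) and 0.14 with the GC content correction (SE 0.086; limma adjusted p = 0.735). ALKBH5 and FTO thus stood on opposite sides of zero under both treatments of the values, neither past the threshold.

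The ratio of ALKBH5 to FTO values within a library does not depend on how libraries are scaled. It was 1.75 and 1.82 with W23-1006, against 2.33 and 2.24 with DMSO. Both ratios with the compound were lower than both with DMSO, at means of 1.79 ± 0.048 with W23-1006 and 2.29 ± 0.062 with DMSO (SD, n = 2 each). The log2 ratio differed by -0.36, and the exact two-sided permutation p was 0.333, the smallest that 2 libraries against 2 can give. With the GC content correction the ratios were 1.82 and 1.93 with W23-1006, against 2.24 and 2.13 with DMSO, a log2 difference of -0.22 with the same exact permutation p. This pair was set side by side because both enzymes act on m6A, with the changes of both genes already known. Since ALKBH5 was lower and FTO higher in both compound libraries, the separation of the ratios follows from those values. It adds no separate evidence.

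**Figure D2:**
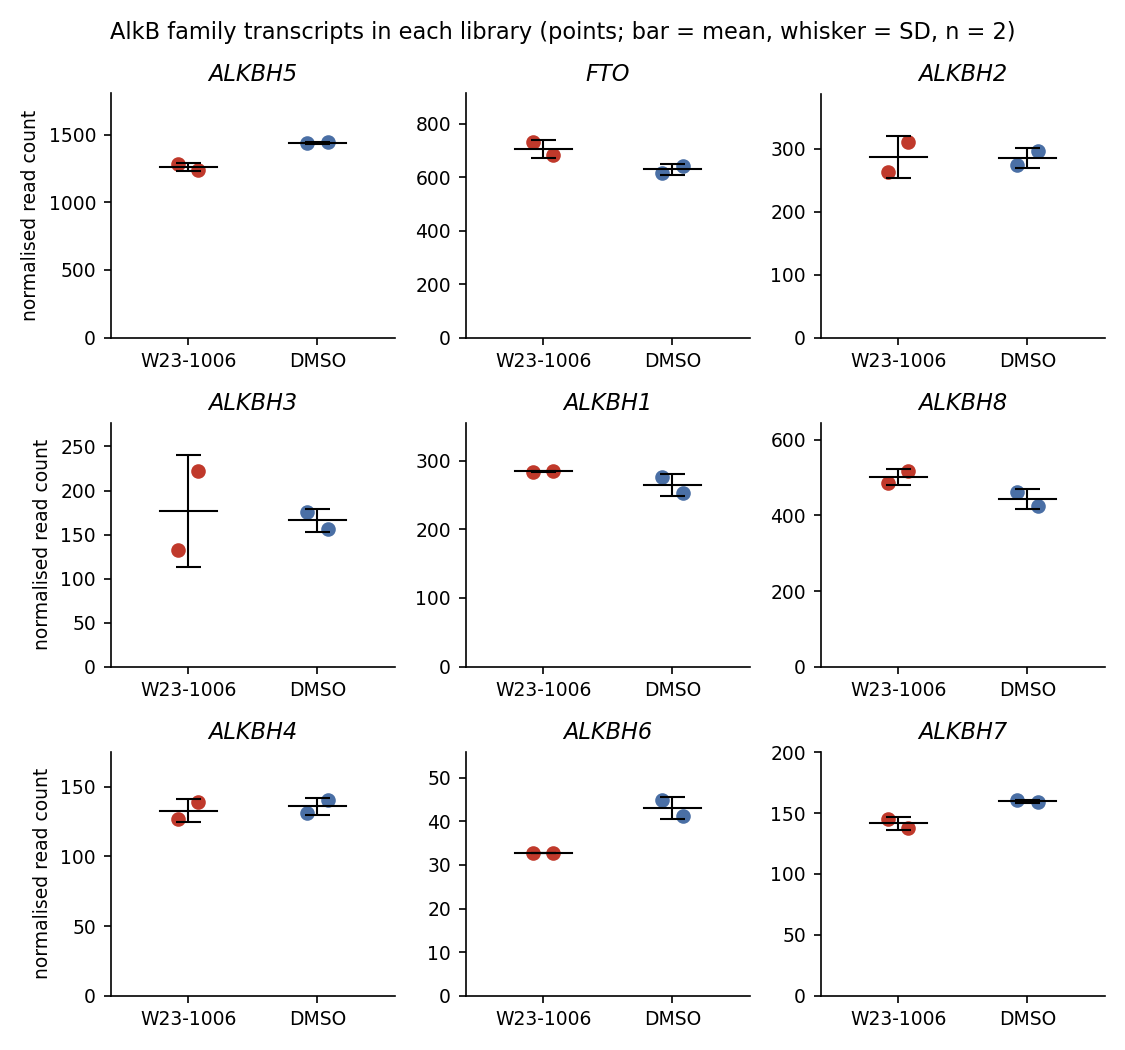
Normalised read count of each of the 9 genes in every library (points), with the mean (bar) and SD (whisker) of 2 libraries, W23-1006 left and DMSO right, each axis starting at 0. ALKBH5, ALKBH6 and ALKBH7 lie lower in both compound libraries, FTO, ALKBH1 and ALKBH8 higher, and the compound libraries of ALKBH3 lie on either side of the DMSO libraries.

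The base repair enzymes did not separate the groups. ALKBH2 (ENSG00000189046, chromosome 12, 109088188 to 109093631, minus strand), which repairs methylated bases in double-stranded DNA, had normalised read counts of 263 and 310.5 with W23-1006, against 274 and 297 with DMSO. The compound libraries enclosed the DMSO libraries, and the log2 fold change was 0.0027 (SE 0.13, 95% interval -0.27 to 0.27; limma adjusted p = 0.996). ALKBH3 (ENSG00000166199, chromosome 11, 43880811 to 43920266, plus strand), which prefers single-stranded DNA and RNA, had 132 and 222 with W23-1006, against 175 and 157 with DMSO.

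The compound libraries disagreed about ALKBH3 more than about any other member. Their gap of 0.74 on the log2 scale was exceeded by 0.226% of the 10602 genes with a mean of at least 100, whose median gap was 0.095, and it rested on 133 and 230 reads if the smallest value in each library is 1 read. The gap between the DMSO libraries was 0.16. The log2 fold change of ALKBH3 was 0.046 (SE 0.20, 95% interval -0.39 to 0.48; limma adjusted p = 0.945). It became -0.33 without W23-1006 replicate 2, 0.42 without W23-1006 replicate 1 and -0.034 without DMSO replicate 2, so no direction can be given for ALKBH3.

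ALKBH8 and ALKBH1, set together here for their action on transfer RNA, were slightly higher with the compound, and neither passed. ALKBH8 (ENSG00000137760, chromosome 11, 107502726 to 107565746, minus strand) joins a methyltransferase to the dioxygenase and completes the modified wobble uridines of some transfer RNAs. Its normalised read counts were 486 and 517 with W23-1006, against 461 and 425 with DMSO. All compound values lay above all DMSO values, at a log2 fold change of 0.18 (SE 0.099, 95% interval -0.034 to 0.39; limma adjusted p = 0.399) and of 0.046 with the GC content correction, where the groups overlapped. ALKBH1 (ENSG00000100601, chromosome 14, 77672404 to 77708020, minus strand), which modifies cytoplasmic and mitochondrial transfer RNAs, had 284 and 284 with W23-1006, against 276 and 253 with DMSO. Its groups also stood apart, narrowly, at a log2 fold change of 0.11 (SE 0.12, 95% interval -0.15 to 0.36; limma adjusted p = 0.724), and overlapped with the GC content correction at 0.053. Its log2 fold change was 0.042 without DMSO replicate 2 and 0.17 without DMSO replicate 1.

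Of the remaining members, ALKBH7 and ALKBH6 were lower in both compound libraries and ALKBH4 was not. ALKBH7 (ENSG00000125652, chromosome 19, 6372433 to 6375251, plus strand), a mitochondrial protein linked to programmed necrosis, had normalised read counts of 145 and 138 with W23-1006, against 160.4 and 159 with DMSO. The log2 fold change was -0.17 (SE 0.16, 95% interval -0.51 to 0.16; limma adjusted p = 0.641). With the GC content correction it turned to 0.086, with both compound libraries above both DMSO libraries. ALKBH7 shares 104 exonic bases with PSPN on the opposite strand, for which the authors' mean values were 122 with W23-1006 and 109 with DMSO.

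ALKBH6 (ENSG00000239382, chromosome 19, 36009120 to 36014239, minus strand) was the scarcest member. It had 32.8 and 32.8 with W23-1006, against 44.8 and 41.3 with DMSO, or 33 and 34 reads against 45 and 40 if the smallest value in each library is 1 read. The log2 fold change of -0.38 was the lowest of the family and also the least certain (SE 0.31, 95% interval -1.04 to 0.28; limma adjusted p = 0.591), and was -0.27 with the GC content correction. The near equality of the compound libraries is within counting error and gives no measure of their spread. On the same strand, the transcript AC002116.1 covers 25.1% of the exonic bases of ALKBH6, and it has no values in the deposited table. Reads there cannot be told apart by strand.

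ALKBH4 (ENSG00000160993, chromosome 7, 102456238 to 102464876, minus strand), reported to remove a methyl group from actin, had normalised read counts of 127 and 139 with W23-1006, against 132 and 140.3 with DMSO. These values interleaved, at a log2 fold change of -0.032 (SE 0.17, 95% interval -0.39 to 0.33; limma adjusted p = 0.953). With the GC content correction the sign turned to 0.14 (limma adjusted p = 0.877), and both compound libraries lay narrowly above both DMSO libraries. A share of 25.3% of the exonic bases of ALKBH4 lies under exons of ORAI2 on the opposite strand. ORAI2 had authors' mean values of 942 with W23-1006 and 1066 with DMSO, and without a stated strand setting for the counting, reads of the 2 genes cannot be told apart there.

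**Figure D3:**
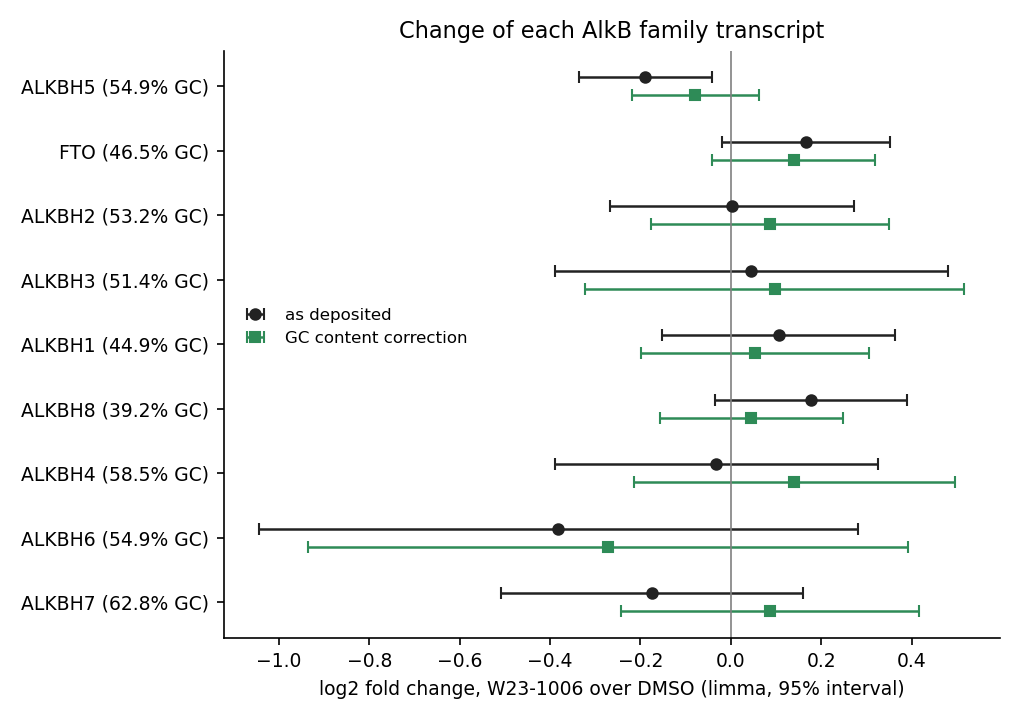
Log2 fold change of each member (W23-1006 over DMSO) with its limma 95% interval, from the values as deposited (black circles) and with the GC content correction (green squares). The interval of ALKBH5 lies below 0 as deposited and reaches across 0 with the correction, and those of the other 8 members cross 0 both ways.

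In all, 6 of the 9 members did not overlap between the groups, 3 higher and 3 lower with the compound, where 47.1% of all genes tested did not (22.1% higher and 25% lower), nor did 60.4% of those with a mean of at least 100. With the GC content correction 5 of the 9 did not overlap, against 38.2% of all genes tested. These were not all the same members: FTO, ALKBH4 and ALKBH7 then lay higher with the compound, and ALKBH5 and ALKBH6 lower.

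The order of the changes within the family broadly followed the base composition of the transcripts. The GC content of the longest transcript ran from 39.2% for ALKBH8 and 44.9% for ALKBH1 over 46.5% for FTO, 51.4% for ALKBH3, 53.2% for ALKBH2 and 54.9% for both ALKBH5 and ALKBH6 to 58.5% for ALKBH4 and 62.8% for ALKBH7. Over the 9 members, Spearman's rho between GC content and log2 fold change was -0.83, given as a description, since the members share the same 4 libraries. The same relation ran through 12582 better-expressed genes (those averaging 5 or more on the log2 scale), at a rho of -0.66 across genes, which are not independent replicates, and of -0.00081 once each library's GC trend was removed. That last value follows from the correction, which was fitted on these same genes, and is no separate result.

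The members were also set against classes of genes of like composition. Genes with 50 to 55% GC had a median log2 fold change of -0.066, with quartiles at -0.17 and 0.027. ALKBH5, at -0.19, lay just below the lower quartile, but its 54.9% GC is at the upper edge of that class. In the next class, 55 to 60% GC, -0.19 would lie between the quartiles of -0.25 and -0.053. Genes with 45 to 50% GC had a median of 0.016, with quartiles at -0.072 and 0.10, and FTO, at 0.17, lay above the upper one. ALKBH8 at 0.18 and ALKBH1 at 0.11 lay between the quartiles of their own classes, 0.074 and 0.22 below 40% GC, and 0.0069 and 0.18 for 40 to 45% GC. ALKBH4, at -0.032, lay above the quartiles of its class (-0.25 and -0.053), and ALKBH7, at -0.17, lay between those of the most GC-rich class (-0.36 and -0.16). For the class of 50 to 55% GC, ALKBH2 lay between the quartiles, ALKBH3 above them and ALKBH6 below them. These places depend on the transcript used. The principal transcripts of ALKBH6 and ALKBH8 have 62.5% and 43.1% GC, which would put both in another class. ALKBH6, at -0.38, would then lie near the lower quartile of the most GC-rich class. The GC content correction and the rho also rest on the longest transcript and were not repeated with the principal one.

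**Figure D4:**
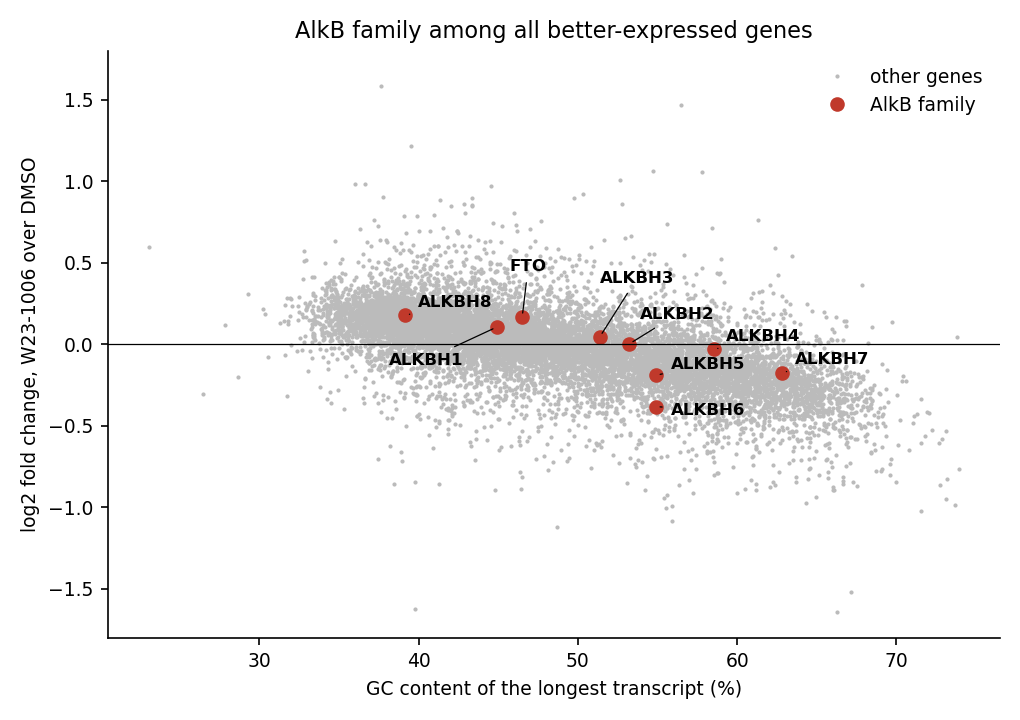
Log2 fold change (W23-1006 over DMSO) against the GC content of the longest transcript, for 12582 better-expressed genes (grey) and the AlkB family (red). The family members run from ALKBH8 at upper left to ALKBH7 at lower right within the cloud of all genes, and ALKBH6 is the lowest of them at -0.38.

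The genes that write and read m6A, which ALKBH5 and FTO erase, gave 1 limma call between them. The counts for these lists and those below stand beside shares over all genes tested. By limma 2.15% passed, 16.7% had an unadjusted p under 0.05 and 48.7% had a positive log2 fold change. By limma-voom 409 of 22486 genes were called higher and 781 lower. Of 12 writer genes tested 0 passed (limma; 6 at an unadjusted p under 0.05, and 1 higher by limma-voom), with 9 positive and a median log2 fold change of 0.10. The smallest p belonged to VIRMA, a scaffold of the writer complex, at 0.22 (SE 0.060; limma adjusted p = 0.0653), followed by PCIF1, which methylates the adenosine next to the cap, at -0.29 (limma adjusted p = 0.135) and RBM15B, an RNA-binding subunit, at -0.18 (limma adjusted p = 0.177). VIRMA had 40.7% GC, PCIF1 60.3% and RBM15B 55.9%, and with the GC content correction their log2 fold changes were 0.11, -0.087 and -0.051. Of 13 reader genes 1 fell and 0 rose (limma; median log2 fold change 0.078; 4 at an unadjusted p under 0.05, and 1 lower and 2 higher by limma-voom). PRRC2A, an m6A-binding protein, fell, with 6943 ± 284 with W23-1006 and 8070.2 ± 145 with DMSO (SD, n = 2 each). Its log2 fold change was -0.22 (SE 0.052; limma adjusted p = 0.0453), and at 61.7% GC it was 0.018 after the GC content correction. FMR1, the fragile X protein, stood at 0.28 (limma adjusted p = 0.0537) and YTHDF3, a cytoplasmic reader, at 0.22 (limma adjusted p = 0.0893). After the GC content correction FMR1 was at 0.12 and YTHDF3 at 0.080. FMR1 passed with a pseudocount of 5, the 5 CPM filter, equal library totals, limma-voom and the gene length correction (limma adjusted p from 0.0125 to 0.0434). VIRMA and YTHDF3 passed with the 5 CPM filter and with limma-voom (limma adjusted p from 0.0181 to 0.0468).

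Among 20 genes tested that work beside the AlkB enzymes in base repair and transfer RNA modification, 2 fell and 0 rose (limma; median log2 fold change 0.063; 6 at an unadjusted p under 0.05, and 2 lower and 1 higher by limma-voom). MPG, the glycosylase that cuts alkylated bases out of DNA, fell, with normalised read counts of 343 and 284 with W23-1006, against 457 and 497 with DMSO. Its log2 fold change was -0.61 (SE 0.12; limma adjusted p = 0.0234), and -0.28 with the GC content correction (limma adjusted p = 0.592). CTU1, part of the enzyme that adds sulphur to wobble uridines, fell, with 257 and 246 with W23-1006, against 372 and 333 with DMSO. Its log2 fold change was -0.48 (SE 0.12; limma adjusted p = 0.049), and -0.094 with the GC content correction (limma adjusted p = 0.883). MPG and CTU1, at 65.6% and 68.2% GC, are richer in GC than any AlkB member. TRMT10C, a mitochondrial transfer RNA methyltransferase, stood at 0.30 and did not pass (limma adjusted p = 0.0611), and at 0.16 with the GC content correction. It passed with a pseudocount of 5, the 5 CPM filter, limma-voom and the gene length correction (limma adjusted p from 0.0161 to 0.0429). The calls of PRRC2A, MPG and CTU1 were lost without any 1 of the 4 libraries, as was every call over all genes, and with a pseudocount of 0.1, no filter on low values or limma without its trend; those of PRRC2A and CTU1 were also lost with trimmed-mean scaling, and that of CTU1 with the gene length correction (limma adjusted p = 0.0593).

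The enzymes that share the AlkB chemistry, and those that make or use its co-substrate, gave 0 calls by limma and by limma-voom. Of 9 other 2-oxoglutarate oxygenases of nucleic acids and ribosomes, 8 were positive (median 0.090; 3 at an unadjusted p under 0.05 by limma; 0 by limma-voom). RIOX2, a ribosomal oxygenase, stood at 0.34 (limma adjusted p = 0.0882), TYW5, a transfer RNA hydroxylase, at 0.34 (limma adjusted p = 0.135) and OGFOD1, a ribosomal prolyl hydroxylase, at 0.19 (limma adjusted p = 0.246). After the GC content correction RIOX2 was at 0.25, TYW5 at 0.20 and OGFOD1 at 0.095. RIOX2 passed with the 5 CPM filter (limma adjusted p = 0.0271). Of 12 genes for the supply and use of 2-oxoglutarate, 5 were positive (median -0.0062; 0 at an unadjusted p under 0.05 by limma; 0 by limma-voom). D2HGDH, which returns hydroxyglutarate to 2-oxoglutarate, stood at -0.33 (limma adjusted p = 0.338), GLUD1, glutamate dehydrogenase, at 0.11 (limma adjusted p = 0.368) and OGDH, which consumes 2-oxoglutarate in the citric acid cycle, at -0.12 (limma adjusted p = 0.392). D2HGDH was at -0.018, GLUD1 at 0.081 and OGDH at 0.017 with the GC content correction. D2HGDH was at -0.18 without W23-1006 replicate 2. With the GC content correction no gene of these 5 lists passed, where 0.0934% of all genes tested did.

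By the root mean square difference of log2 deviations over the 4 libraries, the protein-coding genes most like ALKBH5 were NCAPD2 (0.0078), OS9 (0.0085) and WWP2 (0.0089), out of 10136 with a mean of at least 100. Those most like FTO were ANKIB1 (0.0095), PARG (0.011) and RBM26 (0.011). With 4 libraries such likeness is common: 749 genes came within 0.05 of ALKBH5 and 558 within 0.05 of FTO.

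The libraries held 15161460 to 16497283 reads if the smallest value above 0 in each is 1 read. Counts of libraries of a group differed by a chi-square of 3.36 per gene with W23-1006 and 2.46 with DMSO, above the 1 per gene of counting error alone, so each library was counted as 1 sample. The markers fixed for the line were present, with VIM at 21974 ± 737 with W23-1006 and 21125 ± 87.4 with DMSO (SD, n = 2 each), and ESR1, the oestrogen receptor that a triple-negative line lacks, was at 8.30 ± 1.90 with W23-1006 and 5.64 ± 5.16 with DMSO. ERBB2, also listed as low or absent, was detected, at 885 ± 19.3 with W23-1006 and 1007 ± 64.1 with DMSO (SD, n = 2 each). The summed values of 4 measured markers of other cell types were 201 and 233 with W23-1006, against 239 and 268 with DMSO, none of the 4 past the threshold (limma; 1 at an unadjusted p under 0.05; 0 by limma-voom), and their part in the results above was not tested.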

How the data were processed

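Poly-A selected RNA was sequenced from 4 libraries. The submitters' processing notes name the build GRCh38 and the tools DESeq2 (1.20.0), featureCounts (1.5.0-p3), HISAT2 (2.0.5), fastp and CASAVA, without roles, strand setting or annotation release. The deposited values are a signal, counts scaled per library: 100% were whole multiples, to within 0.001, of the column's smallest value above 0. In 2 columns that value lay close to 1, at 0.994 for W23-1006 replicate 1 and 0.997 for DMSO replicate 1. The check applied did not accept whole reads there, so no count model was fitted. The authors' deposited table adds a log2 fold change, a p-value and an adjusted p-value, per the file headers. Its treatment and control columns were read as W23-1006 and DMSO, the compound and the vehicle of the labels.

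Genes with a mean of at least 1 (22486, including all 9 members) were tested on log2(value + 1), which understates changes of low genes, with limma 3.58.1 in R 4.3.3, using a mean-variance trend, treatment as the only term, two-sided tests and Benjamini-Hochberg adjustment over all genes. GC content came from the longest GENCODE release 29 transcript (99.9% of genes). Its correction subtracted from each library a loess curve (span 0.3) of the log2 deviation on GC content. Deposited gene lengths equalled the union of GENCODE exons for 99.98% of genes.

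The members and lists were chosen with earlier results of these data known. The text names all 9 members, up to 3 genes with the smallest p of each other list, the 3 genes most like ALKBH5 and FTO, and markers fixed for the line. A few listed genes were not analysed here. Alternatives were other pseudocounts, filters and scalings, limma without trend, limma-voom, a replicate block, the GC content correction, removal of each library and, added after the data were seen, a gene length correction.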

Additional observations from a re-analysis of the deposited data

How the results depend on the processing

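No member passed under any of the 17 alternatives (limma; the lowest adjusted p, 0.0671, was that of ALKBH5), and ALKBH1, ALKBH5, ALKBH6, ALKBH8 and FTO kept their direction in all that gave a value; ALKBH6 was removed by the filter of 5 CPM in 2 libraries. The log2 fold change of ALKBH5 lay between -0.21 and -0.079 and that of FTO between 0.12 and 0.22. ALKBH2 turned to -0.011 with equal library totals and to -0.011 with limma-voom, and ranged from -0.12 to 0.12 when 1 library was left out. ALKBH3 ranged from -0.33 to 0.42 and ALKBH4 from -0.095 to 0.031 when 1 library was left out. With the GC content correction, alone or with the replicate block, ALKBH4 turned to 0.14, ALKBH7 to 0.086, PRRC2A to 0.018 and OGDH to 0.017; with the gene length correction ALKBH4 turned to 0.025. The ALKBH5 to FTO log2 ratio difference lay between -0.38 and -0.33 when 1 library was left out. The calls over all genes, 484 in the main analysis, were 770 with a pseudocount of 5, 1475 with the 5 CPM filter, 826 with equal totals, 1190 with limma-voom, 774 with the gene length correction and 21 with the GC content correction. They were 0 with a pseudocount of 0.1, no filter, limma without trend or any 1 library left out (1866 to 3568 at an unadjusted p under 0.05), a lone library being taken to vary as the other 2 do. A replicate block gave 1731 calls, and 203 with the GC content correction; libraries that share a number had deviations correlated at 0.054 across genes, and nothing in the labels pairs them. VIRMA, PCIF1, FMR1, YTHDF3, TRMT10C and RIOX2 passed with the block (limma adjusted p from 0.0039 to 0.0401), and with the GC content correction none did. The causes were not tested. Scaling moved the median of all genes by under 0.1 on the log2 scale.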
